A study of Populus tomentosa with 4 samples.

Results

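MiR1446 is a microRNA family described in poplars, and all 5 of its listed names, miR1446a to miR1446e, were higher in shoot tips than in leaves of Chinese white poplar (Populus tomentosa). The members were taken by name, as every listed microRNA called miR1446 followed by a letter, which gave 5 of 193 names and 1 of 107 distinct sequences. Small RNA was sequenced in 2 libraries of shoot tips, labelled SAM as well, and 2 libraries of the leaves around them, taken as healthy tissue from trees aged 20 years that grew outdoors, with no treatment named. The authors' deposited table gives for each name 1 signal per tissue (a normalized abundance whose scale is not stated), the log2 fold change (shoot tips over leaves, so positive where shoot tips were higher), the FDR (an adjusted p-value) and the predicted target loci. The labels do not tie the libraries to separate trees, so the FDR may measure technical spread alone. A shoot tip holds young leaves and stem as well as the meristem, and no messenger RNA was measured by which the tissues could be checked.

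Plant microRNAs are cut from hairpin precursors, loaded into Argonaute proteins and guide the cleavage or silencing of transcripts to which they pair along nearly their whole length. Several loci of a genome can encode the same mature sequence, and each then carries its own letter. The value given to such a name rests on how reads of the shared sequence were assigned to it. The loci described here are the table's predictions.

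All 5 names had the mature sequence shown first, in which capitals mark bases 2 to 8, the seed. It is followed by the known sequences that differed from it at the fewest positions without gaps, shown to place miR1446 among the others.
miR1446a to miR1446e: uUCUGAACucucucccucaa
miR394a-3p: cUGUUGGUcucucuuuguaa
miR396a: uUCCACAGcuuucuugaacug
miR396d: uUCCACAGcuuucuugaacuu
miR482d-3p: uUGCCGACcccacccaugccaa

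The miR1446 sequence had 20 nt, a length shared by 10 of the 52 known sequences (34 had 21 nt and 8 had 22 nt), and began with U, as 39 of the 52 did. It was rich in pyrimidines, with 7 U and 8 C against 4 A and a single G, and bases 8 to 18 formed a run of 11 pyrimidines. Pyrimidines made up 75% of it against a median of 52.4% over known sequences, and only 3 known sequences had a higher share. No other listed sequence had its seed, and the nearest seeds, in 2 numbered sequences, differed at 2 bases. The nearest whole sequence, miR394a-3p, differed at 10 positions, and the next 4 (miR396a, miR396d, miR482d-3p and a numbered sequence) at 12, with unpaired ends counted and shifts of up to 3 bases allowed. No listed sequence was closer than 10 differences to its reverse complement.

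In the authors' deposited table miR1446b had a shoot tip signal of 1383 and a leaf signal of 305 (log2 fold change 2.17, FDR 7.38e-08), and miR1446a had 1379 and 309 (log2 fold change 2.15, FDR 1.25e-07). MiR1446c and miR1446e carried identical values, 700 and 217, with a log2 fold change of 1.68 (FDR 5.76e-05), and miR1446d had 699 and 221, with 1.65 (FDR 8.22e-05), again from the authors' deposited table. If the signals are RPM, which is not stated, miR159 and miR319 made up 45.4% of the shoot tip total and 9.32% of the leaf total. A total without them adds 0.73 to each log2 fold change, to 2.90 for miR1446b and 2.41 for miR1446c. The family fell into a high pair, a and b, and a low trio, c to e. All 5 names were higher in shoot tips, against 73 of all 193 listed names (37.8%), 47 of 105 known names (44.8%) and 45 of 107 sequences (42.1%). The 5 names are 1 of these sequences and are not 5 separate observations. At an FDR below 0.01 all 5 were still called higher, against 50 of the 193 names (25.9%). Every listed name had an FDR below 0.05 (100%), so passing that threshold does not set miR1446 apart. Over its 5 names the family's median log2 fold change was 1.68, the value of a name in the low trio. The median over all listed names, most of which were lower in shoot tips, was -2.75. Known sequences higher in shoot tips, each counted once by its name with the highest mean signal, had a median of 2.15. Counted in that way, as miR1446a, the family was itself at 2.15. In tissue samples, more cells that hold miR1446 and more of it per cell cannot be told apart.

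For 178 of the 193 names in each tissue the signal could be written in a single way as whole reads of 2 libraries once the worth of a read in each library (its step) was set. Names with no signal in a tissue count among these. The reads given here were recovered by that model. The libraries are called A and B within each tissue, since which replicate each one is remains unknown, and library values are scaled so that their mean is the deposited signal. The reads, library values and library ratios given are those of the coarsest steps that fitted. Finer steps also fitted, and over all 108 combinations of fitting steps both shoot tip libraries lay above both leaf libraries in 107 for miR1446b and in 95 for miR1446c. Many of the fitting steps gave the same library values, so these combinations are not separate alternatives. MiR1446b had 1346 reads in shoot tip library A and 1793 in library B, and 272 and 279 reads in leaf libraries A and B. As scaled values, its shoot tip libraries were at 1060 (exact Poisson 95% interval 1004 to 1118) and 1707 (1628 to 1787). Its leaf libraries were at 240 (212 to 270) and 371 (328 to 417). The lower shoot tip library was 2.86-fold above the higher leaf library, so the tissues did not overlap at these steps, and the intervals cover counting error only. MiR1446a was close to it at 1045 and 1714 in shoot tips and 243 and 376 in leaves.

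The low trio showed the same order of libraries at a lower level. MiR1446c and miR1446e had 693 and 897 reads in the shoot tip libraries, at 546 and 854, and 208 and 189 reads in the leaf libraries, at 184 and 251. MiR1446d had 692 and 896 reads in shoot tips, at 545 and 853, and 210 and 194 in leaves, at 185 and 258. The lower shoot tip library exceeded the higher leaf library by 2.17-fold for miR1446c and by 2.11-fold for miR1446d. Over all names recovered in both tissues, including those with no signal in a tissue, 63 of 170 (37.1%) had both shoot tip libraries above both leaf libraries. The other 107 (62.9%) had both below, so a lack of overlap is general in a table selected by FDR.

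**Figure D1:**
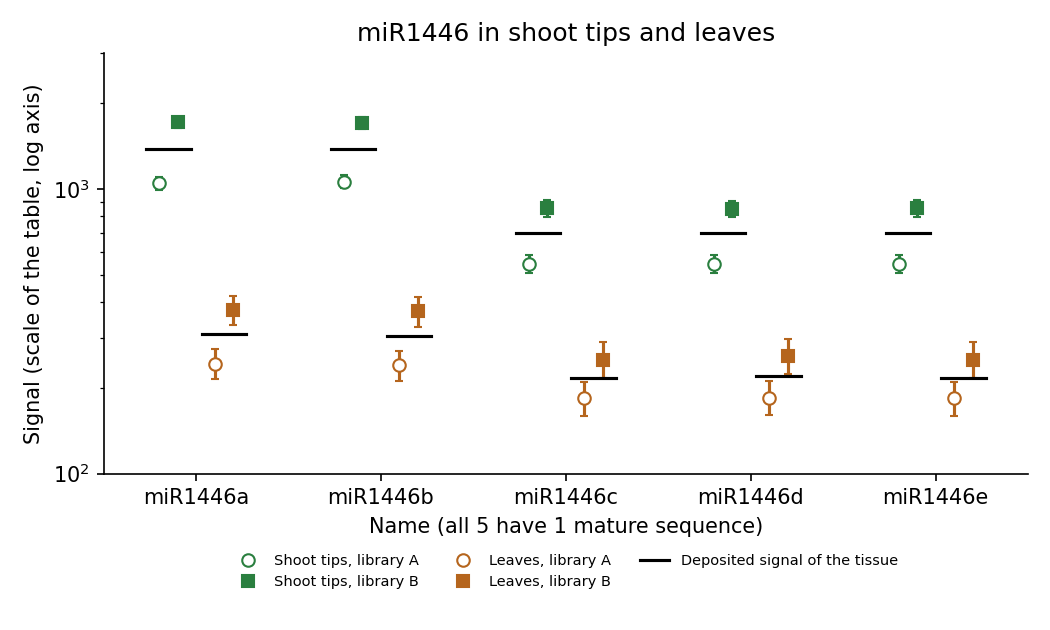
Signal of each miR1446 name on the scale of the table (log axis), by name: circles are library A and squares library B of each tissue, bars are exact Poisson 95% intervals for counting error, and black lines are the deposited signals. At the coarsest fitting steps both shoot tip libraries lie above both leaf libraries for all 5 names, and within each library miR1446a and miR1446b lie above miR1446c to miR1446e.

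At the coarsest steps the libraries of a tissue differed by more than their counting error. Shoot tip library B was 1.61 times library A for miR1446b and 1.56 times for miR1446c. That ratio was near the median of 1.61 over the 38 known sequences with at least 20 recovered reads in shoot tips, of which 36 were higher in library B. Numbered sequences, which carry only a running number, had a median ratio of 0.605 and 8 of 32 higher. In leaves, library B was 1.54 times library A for miR1446b and 1.37 times for miR1446c, beside a median of 1.09 over 42 known sequences. With 1 library left out in turn at these steps, the log2 ratio of shoot tips over leaves ranged from 1.80 to 2.53 for miR1446b and from 1.33 to 1.97 for miR1446c. These values depend on the steps. Over all fitting steps the higher shoot tip library was 1.61 to 5.6 times the lower for miR1446b, and the log2 ratio with 1 library left out ranged from 0.46 to 3.48. For miR1446c that log2 ratio ranged from -0.01 to 3.05, and 1 of 42 values, many of them repeats of each other, was below 0. Whether the library difference plays a part in the tissue difference was not tested.

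Among known sequences, miR1446 had the same rank by tissue difference and by shoot tip signal, and a lower one by leaf signal. Counted once by its name with the highest mean signal, miR1446a, it was the tenth of the 52 known sequences by log2 fold change and the tenth by shoot tip signal, and number 27 by leaf signal. Of the 19 known sequences that were higher in shoot tips it was the sixth by shoot tip signal, and its log2 fold change of 2.15 was their median. The median known sequence had a signal of 163 in shoot tips and 350 in leaves. MiR1446a held 0.265% of the listed signal in shoot tips, summed over distinct sequences, and 0.0784% in leaves, where the sums cover listed microRNAs alone and are not the depth. Counted by its name with the lowest mean signal, miR1446c, the sequence was number 14 by log2 fold change, 14 by shoot tip signal and 29 by leaf signal, and held 0.134% and 0.0551% of the listed signal.

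**Figure D2:**
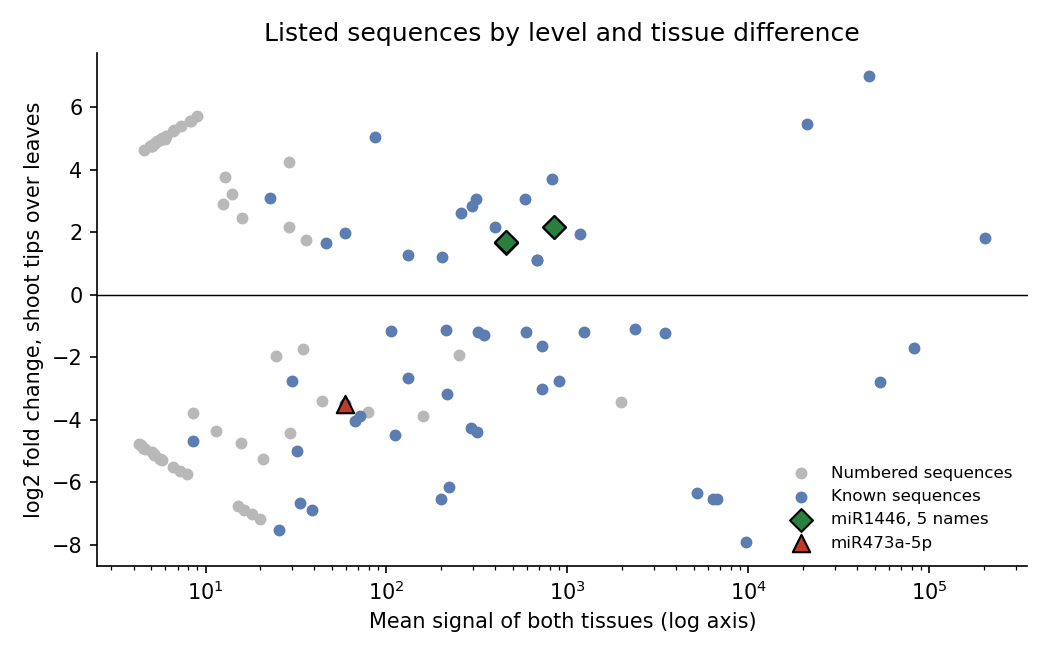
Log2 fold change (shoot tips over leaves) against the mean signal of both tissues (log axis), with 1 point per listed sequence, the 5 miR1446 names as green diamonds and miR473a-5p as a red triangle. The miR1446 names lie between log2 fold changes of 1.65 and 2.17, while miR473a-5p lies at -3.51.

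The known sequences most like miR1446a in level and tissue difference came from several families. The likeness was the larger of the differences in log2 fold change and in log2 mean signal to miR1446a, over 2 tissues. The nearest known sequence was miR159d, of a family that targets GAMYB-type factors, with signals of 1868 and 489 (log2 fold change 1.93, distance 0.48) in the authors' deposited table. MiR319i, of a family that targets TCP factors of leaf growth, followed at 1039 and 122 (log2 fold change 3.07, distance 0.92). MiR6459a-3p and miR6459b both had 930 and 429 (log2 fold change 1.11, distances 1.03 and 1.04), and miR390b, which triggers trans-acting small RNAs that target auxin response factors, had 650 and 145 (log2 fold change 2.15, distance 1.09). Measured from miR1446c instead, miR390b was nearest (distance 0.47), followed by miR6459a-3p and miR6459b (0.57 each), and miR159d and miR319i were not among the 5 nearest.

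Although the 5 names share 1 mature sequence, the high pair stood well above the low trio, and by more in shoot tips than in leaves. At the coarsest steps miR1446b had 653 more reads than miR1446c in shoot tip library A and 896 more in library B, ratios of 1.94 and 2. In the leaf libraries it had 64 and 90 more, ratios of 1.31 and 1.48. The pooled signals differed 1.98-fold in shoot tips and 1.41-fold in leaves. The signal by which miR1446b exceeded miR1446c was itself 7.77-fold higher in shoot tips than in leaves, against 3.22-fold for miR1446c. Within each group the names were almost equal: miR1446c exceeded miR1446d by 1 read in each shoot tip library and had 2 and 5 reads fewer in the leaf libraries. MiR1446b had 19 more and 8 fewer reads than miR1446a in the shoot tip libraries, so the reads of neither contained all those of the other. The rule by which a read was given to a name is not known, the same reads may stand under several names, and the values of the names were therefore not summed. Which value stands for the mature sequence is uncertain.

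In shoot tips such a gap was uncommon in the table, and in leaves several well-measured sequences had a larger one. Of 37 sequences with several names, 22 had names with different values. For the 28 whose names were all above 0 in shoot tips, the median ratio of the highest to the lowest name in shoot tips was 1.01. MiR1446 had a ratio of 1.98, behind only the miR167 3' arm at 2.16, whose shoot tip signals were as low as 4.10. The sole other ratio above 1.5 was that of miR393 at 1.56, with shoot tip signals from 5.94 to 9.25. Those sequences rest on few reads there, whereas the miR1446 names had 1588 to 3139 reads in shoot tips. In leaves miR1446 ranked 5 of 37 with a ratio of 1.42, below miR167 at 3.39, the miR319e sequence at 2.85 (921 against 323), miR393 at 2.52 and the miR319a sequence at 1.56 (728 against 468). In the difference of log2 fold changes between names it ranked 4 with 0.52, and the miR319e sequence was highest with 1.30.

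**Figure D3:**
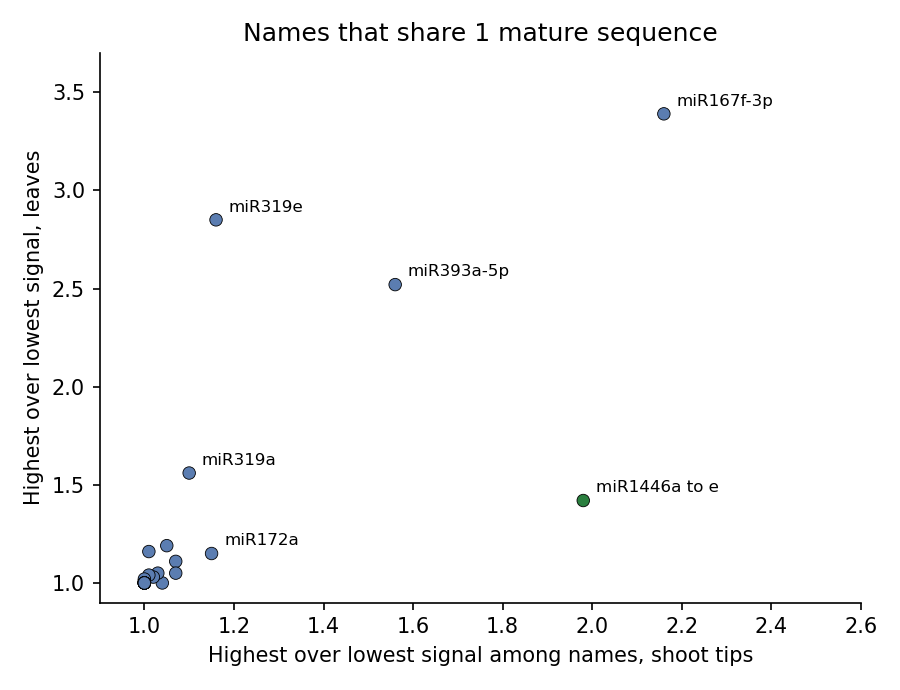
Ratio of the highest to the lowest signal among names with 1 mature sequence, in shoot tips (horizontal axis) and leaves (vertical axis), with 1 point per sequence above 0 in both tissues. MiR1446, in green, lies at 1.98 and 1.42, while the miR319e sequence lies at 1.16 and 2.85 and most sequences lie near 1.

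A stretch of miR1446 recurred in miR473a-5p, the 5' arm of another poplar microRNA. The comparison was added after their shared loci were seen. Capitals mark the shared bases, the last 11 of miR1446 (positions 10 to 20, counted from the 5' end) and positions 2 to 12 of miR473a-5p.
miR1446a to miR1446e: uucugaacuCUCUCCCUCAA
miR473a-5p: aCUCUCCCUCAAggcuucca

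The shared run lies at the 3' end of miR1446 but covers the whole seed of miR473a-5p. Of the 106 other sequences compared, the rest shared a run of at most 7 bases with miR1446. Among all pairs of listed sequences from different families, 15 shared a run of 9 to 13 bases. Pairs with longer runs were not counted. Of the 15, 10 joined miR159 to miR319, 4 joined numbered sequences, and the last was miR1446 with miR473a-5p. The microRNAs differed between tissues in opposite directions. In the authors' deposited table miR473a-5p had a shoot tip signal of 9.25 and a leaf signal of 109 (log2 fold change -3.51, FDR 2.63e-07). Its recovered reads were 9 and 12 in the shoot tip libraries and 93 and 102 in the leaf libraries, or scaled values of 7.08 and 11.4 against 82.1 and 135. At these steps miR1446b had more reads than miR473a-5p in all 4 libraries, and in leaf library B the numbers were 279 and 102.

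Predicted loci were shared between these microRNAs more than with any other listed sequence. Of the 162 loci of miR1446, 9 were also predicted for miR473a-5p, which is 5.56% of the miR1446 loci and 6.38% of the 141 of miR473a-5p. No other sequence shared more than 3, and 62 of the 106 shared none. The other 14 pairs with runs of 9 to 13 bases shared 15 to 63 loci. The 9 loci included both DELLA protein RGL1 loci of miR1446, POPTR_0012s09550 and POPTR_0015s10310. DELLA proteins are nuclear repressors of growth that are degraded when gibberellin is perceived. The others were described as the trihelix factor ASIL1, transcription initiation factor IIF subunit alpha, the largest subunit of RNA polymerase II, replication factor C subunit 3, the GTPase-activating protein AGD3, extensin and the F-box protein At1g22220.

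**Figure D4:**
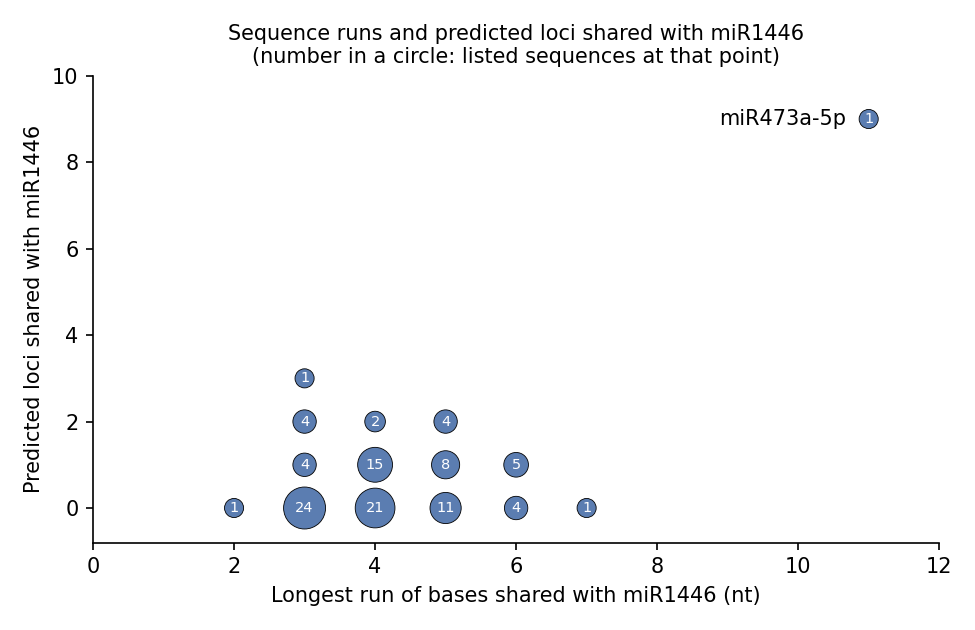
Predicted loci shared with miR1446 against the longest run of bases shared with it (in nt), where each circle gives the number of listed sequences at that point. MiR473a-5p lies alone at 11 bases and 9 loci, and the other sequences share at most 7 bases and at most 3 loci.

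The same 162 loci were listed for each of the 5 names, out of 10305 loci in the table. Of the known sequences, 12 had more loci, and their median was 154. A description from a related Swiss-Prot protein was given for 134 of the 162 (82.7%), against 79.2% of all loci, and these carried 119 different descriptions. Only 28 of the 134 described loci, or 20.9%, shared their description with another miR1446 locus. In the 46 other known sequences with 113 to 181 loci that share ranged from 15.2% to 78.4% with a median of 33.7%, and 44 of them were above miR1446. The predicted loci of miR1446 were thus spread over many proteins rather than held by 1 gene family. For 115 of the 162 (71%) no other listed sequence was predicted. The 47 shared loci (29%) involved 44 other sequences. In the 46 other known sequences of like size the median share of loci also predicted for another sequence was 40.2%. The shares of miR172b-3p (31.8%) and miR164e (32.3%) were close to that of miR1446. Of these loci, 22 were shared with at least 1 sequence higher in shoot tips, 33 with at least 1 that was lower, and 8 with both.

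The largest group of loci under 1 description was that of sigma factor binding protein 1, a plastid and nuclear regulator of defence known in Arabidopsis, with 4 miR1446 loci out of 5 in the whole table. None of the 4 was predicted for another listed sequence, which held for 71% of all miR1446 loci. A further 12 descriptions had 2 miR1446 loci each. All loci of the table under the description were included for 5 of them: Serrate, which helps to process microRNA precursors, the metal-nicotianamine transporter YSL3, the large subunit of ribonucleoside-diphosphate reductase, which makes the precursors of DNA, a PARN-like poly(A) ribonuclease, and an inactive receptor-like kinase. For DELLA protein RGL1, dynamin-related protein 1E of membrane traffic, ubiquitin, the xyloglucan galactosyltransferase KATAMARI1 homolog and the major allergen Pru ar 1, 2 of 3 loci were included. ROOT PRIMORDIUM DEFECTIVE 1 had 2 of 6 and a nuclear matrix constituent protein 2 of 4. These descriptions were picked out after they were seen, and paralogs resemble each other in sequence, so their loci are not independent predictions.

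The gibberellin class rested on a single pair of paralogs. It held 2 of the 162 loci (1.23%), both DELLA protein RGL1, against 18 of 10305 loci (0.175%). Of the 10 DELLA loci in the table, those were the only ones predicted for miR1446. The third RGL1 locus and the remaining GAI, RGL2 and GAIP loci were predicted for miR172b-3p, miR473a-5p, miR6425e or numbered sequences. None of the gibberellin oxidases or GID1 receptors in the table was among the miR1446 loci. No acetyltransferase (0 of 28 in the table) and no cytochrome P450 (0 of 89) was predicted for it. The other hormone class had 1 locus, an AP2-like ethylene-responsive factor, and the words of that class missed ARR22, a two-component response regulator of the cytokinin type.

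The largest classes each held a somewhat higher share than among all loci. Kinases made up 16 loci (9.88%, against 9.41% of all loci), most of them receptor-like by name, among them SERK2, a co-receptor of brassinosteroid and peptide signalling in Arabidopsis, and PERK8. The same class also took in enzymes of metabolism such as phosphofructokinase 4 and a plastid pyruvate kinase. Transcription factors made up 11 (6.79%, against 5.09%), including Scarecrow-like protein 14, homeobox protein HD1, the bHLH factors bHLH80 and UNE10, JUNGBRUNNEN 1, which delays senescence in Arabidopsis, and AGL80. Ubiquitin and proteolysis also had 11 (6.79%, against 4.49%), with 4 F-box proteins, the E3 ligases UPL4 and SINA-like 10 and a regulatory subunit of the 26S proteasome. Chloroplast proteins had 15 (9.26%, against 6.41%), of which 4 were the sigma factor binding loci.

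RNA processing and translation had 9 loci (5.56%, against 3.01%) and included steps of small RNA metabolism. Besides both Serrate loci, small RNA degrading nuclease 3, which trims mature microRNAs in Arabidopsis, was among them. Splicing was represented by PRP38 and U2AF large subunit B, and transcription by RNA polymerase II subunit 1. The words of that class missed some loci, such as both of the PARN-like poly(A) ribonuclease. Heat shock and chaperones had 4 (2.47%, against 0.631%), namely ClpB1, heat shock cognate 70 kDa protein 2, P58IPK and dnaJ 49. Chromatin and cell cycle words matched 3 (1.85%, against 2.56%), including the histone methyltransferase ATX5. They did not match the condensin subunit H2, SMC 2-2, the crossover endonuclease MUS81 or cell division cycle 5-like protein.

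Several classes were thinner than among all loci. Disease resistance had 1 locus (0.617%, against 3.52%), which was shared with miR482d-3p and a numbered sequence, and mitochondrial proteins had 1 (0.617%, against 2.81%). Pentatricopeptide repeat proteins had 3 (1.85%, against 2.9%), transporters and channels 6 (3.7%, against 4.36%), cell wall and lignin 2 (1.23%, against 1.67%) and vesicle traffic 1 (0.617%, against 0.825%), the exocyst subunit EXO70A1. Glycosyltransferases, by contrast, held a higher share, with 3 loci (1.85%, against 1.28%). The transporter count includes a plastid desaturase that matched by the word carrier. The remaining 53 described loci matched no class. None of these shares was tested, and no transcript of the loci was measured.

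**Figure D5:**
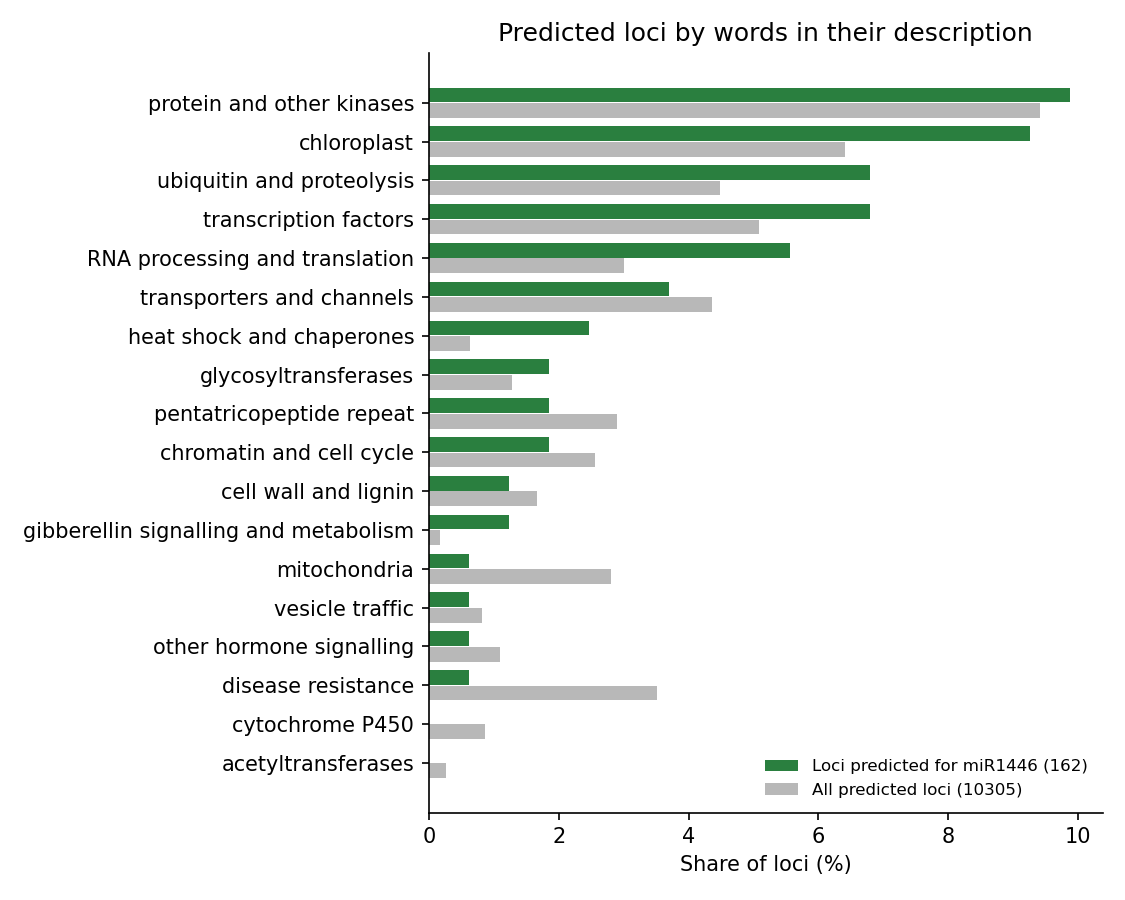
Share of loci (%) in each class of descriptions, for the 162 loci predicted for miR1446 (green) and all 10305 predicted loci of the table (grey), where a locus can fall in several classes. Kinases are the most frequent class at 9.88% against 9.41%, and the gibberellin class holds 1.23% against 0.175%.

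The first 20 described loci in the order of their identifiers give a sample of the list that was not picked by function. Beyond those already named they comprised importin subunit beta-1, which carries proteins into the nucleus, a phytoene synthase of carotenoid synthesis, a VHS domain protein, a serine/threonine-protein kinase, a polygalacturonase of pectin breakdown, a 31 kDa chloroplast ribonucleoprotein, mechanosensitive ion channel protein 5, the receptor-like kinases At4g36180 and At5g49770 and a plastid dihydrodipicolinate synthase of lysine synthesis. The phytoene synthase locus was shared with 4 other sequences, the most of these 20. In addition 5 loci were listed on 2 lines for every name: Patellin-6, cell division cycle 5-like protein, RNA polymerase II subunit 1, 1 of the ROOT PRIMORDIUM DEFECTIVE 1 loci and 1 ubiquitin locus. The table does not say whether such a pair of lines stands for 2 predicted sites.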

How the data were processed

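Per the labels' protocols, total RNA came from a modified Trizol extraction with a TaKaRa plant kit, and libraries followed the usual Illumina steps. How reads were aligned, counted, scaled and tested, and how targets were predicted, was not given in the sources used here. Each deposited signal is 1 value per tissue. The authors also gave the log2 fold change and the FDR, a p-value adjusted for multiple tests, as deposited. The table had 27252 lines, 1 per name and locus, of which 1215 were repeats. No test was added, since no value per library is given.

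The members, gene lists and comparisons were chosen with earlier results of these data known. Reads per library were recovered as whole multiples of 2 steps between 0.15 and 1.5, for signals up to 5000. A solution was kept within 1.2 rounding errors if the next lay at least 10 times farther off. In shoot tips 178 of 193 names had one and in leaves 178, with names of no signal counted as recovered. The coarsest of 9 fitting pairs of steps was used for shoot tips and the coarsest of 12 for leaves. On data simulated with those coarsest steps, 135 of 135 kept shoot tip solutions and 159 of 159 leaf solutions were right. The recovery was given these steps, so the choice among the fitting pairs was not tested.

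Named items were all miR1446 names, the 5 nearest known sequences by pattern, the 3 nearest by sequence and those that tied, the first 20 described loci by identifier, and the gibberellin and acetyltransferase classes. Items outside that rule were named after their values were seen. Numbered sequences, written with T, were compared with U in its place. Classes were matched by words, and 87 loci whose description held the letters RGA but not DELLA were left out of the gibberellin class. The reference gene table held 0 of the locus identifiers, and descriptions are those deposited. Python 3.11.15, numpy 2.4.6, scipy 1.17.1, pandas 2.3.3 and matplotlib 3.10.9 were used.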

Additional observations from a re-analysis of the deposited data

How the results depend on the processing

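All 5 names had an FDR below 0.01 (at most 8.22e-05) and lay above the median level. Omitting miR159 and miR319 from the total raises every log2 fold change, so all 5 necessarily stayed at least 2-fold higher in shoot tips. None of these settings could have changed the direction of a name. Counted by sequence the 5 names are 1. With the signals taken as RPM (an assumption), a total that omits miR159 and miR319 adds 0.73 to every log2 fold change, which gives 2.88 for miR1446a, 2.90 for miR1446b, 2.41 for miR1446c and miR1446e and 2.38 for miR1446d. The log2 ratio of the signals ranged over the names from 1.65 to 2.18 with a pseudocount of 1 and from 1.66 to 2.18 with none. Leaving out 1 recovered library in turn gave log2 ratios of 1.76 to 2.51 for miR1446a, 1.80 to 2.53 for miR1446b, 1.33 to 1.97 for miR1446c and miR1446e, and 1.30 to 1.94 for miR1446d. Library values depend on the steps. Under every fitting pair of steps, leaving out 1 library gave 0.46 to 3.48 for miR1446b and -0.01 to 3.05 for miR1446c. The latter held the only reversal of direction among the alternatives run. The other names were not run under every pair, and miR1446e carries the same values as miR1446c. Under all fitting pairs the shoot tip libraries of miR1446b lay between 419 and 2347 and the leaf libraries between 124 and 486. For miR1446c the ranges were 216 to 1184 and 84.2 to 350. The spread among names ranked 2 by the shoot tip ratio and 4 by the difference of log2 fold changes. Of the 47 shared loci, 34 were shared with known sequences and 22 with sequences of the same direction, fewer by construction. The nearest sequence differed at 10 positions, the nearest seed at 2 bases, and the longest shared run had 11 bases. Represented by miR1446c in place of miR1446a, the sequence moved from rank 10 to 14 by log2 fold change. The longest-run comparison, the other steps, that change of name and the trimmed gibberellin words were added after the data were seen. No paired analysis was possible because each tissue has 1 pooled column without replicate numbers. Count models and other normalizations per library were not run for the same reason. Total depth per library is unknown. The cause of these shifts was not tested, beyond those fixed by construction.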
